A study of Mus musculus with 8 samples.

Results

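The regions described here were 4438 intronic peaks of open chromatin, taken from 15736 peaks that the study listed as differing between hearts lacking CHD4 in cardiomyocytes and control hearts. A peak was counted when its interval overlapped an annotated transcript but no exon (GENCODE M21, mm10), when its centre lay more than 3 kb and at most 50 kb from the nearest transcription start site (TSS), and when 50% or less of it was soft-masked as repeat. Of these peaks, 3390 were gained in Chd4-CMko hearts and 1048 were lost. The peaks at the limits of the rule lay 3010 bp (Phactr3, inside) and 2999 bp (Smarce1, outside) from a TSS at the near end, and 49888 bp (Nrg1, inside) and 50048 bp (Adamtsl3, outside) at the far end.

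ATAC-seq, in which the transposase Tn5 cuts and tags accessible DNA, was performed on whole hearts at the embryonic stage E10.5. WT hearts came from control littermates. Chd4-CMko hearts carried floxed Chd4 alleles (Chd4 fl/fl) and Tnnt2-Cre/+, a Cre driven by the promoter of the cardiac troponin T gene, so that deletion was aimed at cardiomyocytes while endocardial, epicardial and blood cells of the same hearts kept CHD4. There were 4 samples per genotype, each a pool of hearts (3 hearts by the series' design text, 4 by the samples' labels), and 40000 viable cells were taken from each. The files hold 1 list of gained peaks and 1 list of lost peaks, with a score for each peak and no value for any single sample. No replicate error could therefore be given, and the intervals below are 95% Wilson or Newcombe intervals that cover counting error over peaks only, with neighbouring peaks treated as independent. In whole hearts, a change in the share of a cell type and a change in accessibility within a cell cannot be told apart. The lists hold differing peaks only and give no level at genes that mark heart cells, so the labelled tissue could not be checked against such markers.

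CHD4 is the ATPase of the nucleosome remodelling and deacetylase (NuRD) complex, which shifts nucleosomes and removes acetyl groups from histones, and is known in the embryonic heart for keeping non-cardiac muscle genes silent in cardiomyocytes. Introns make up most of the length of vertebrate genes and hold many enhancers, short stretches where transcription factors bind and act on a promoter that may belong to the surrounding gene or to another one. Among the factors whose sites were counted here, MEF2 and SRF activate muscle genes, NFY binds CCAAT boxes of promoters and enhancers, SP and KLF factors bind GC-rich sequence, TEAD factors are the DNA-binding partners of YAP, AP-1 is the FOS and JUN dimer, and CTCF marks boundaries and loop anchors of chromatin.

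The sequences below show the motifs whose frequency differed between the gained and the lost intronic peaks. For each of these motifs, up to 5 per list in order of the size of the difference, the highest-scoring peak that held it was taken, with 1 peak per host gene. All are given on the plus strand of mm10, 5′ to 3′, and capitals mark the named motif. The gained peaks were at chr7:3411339-3411489 in intron 2 of 3 of Cacng8 (score 374.5), chr14:121731933-121732083 in intron 1 of 54 of Dock9 (score 315.5), chr10:81464511-81464661 in intron 8 of 10 of Celf5 (score 483), chr5:111239314-111239464 in the single intron of a short transcript of Ttc28 (score 348) and chr17:28344345-28344495 in intron 1 of 12 of Tead3 (score 272.5).
Cacng8 NFY: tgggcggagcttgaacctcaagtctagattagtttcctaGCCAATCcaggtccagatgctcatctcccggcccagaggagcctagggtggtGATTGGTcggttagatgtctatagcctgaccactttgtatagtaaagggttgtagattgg
Dock9 nuclear receptor element: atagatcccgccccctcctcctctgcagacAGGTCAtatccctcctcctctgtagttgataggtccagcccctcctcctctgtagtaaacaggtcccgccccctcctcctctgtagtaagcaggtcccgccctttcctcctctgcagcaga
Celf5 SP/KLF GC box: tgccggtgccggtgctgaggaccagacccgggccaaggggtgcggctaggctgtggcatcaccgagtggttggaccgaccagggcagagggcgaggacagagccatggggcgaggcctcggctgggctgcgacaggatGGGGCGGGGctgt
Ttc28 KLF: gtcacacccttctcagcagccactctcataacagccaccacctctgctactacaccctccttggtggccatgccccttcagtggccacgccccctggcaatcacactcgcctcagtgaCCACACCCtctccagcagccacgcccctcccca
Tead3 SRF: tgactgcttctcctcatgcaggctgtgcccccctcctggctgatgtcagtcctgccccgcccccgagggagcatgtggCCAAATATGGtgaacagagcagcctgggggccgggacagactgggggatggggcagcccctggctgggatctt

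The lost peaks were at chr2:20898806-20898956 in intron 2 of 5 of Arhgap21 (score 212), chr2:32437173-32437323 in intron 1 of 10 of Slc25a25 (score 103.1), chr11:117285392-117285542 in intron 1 of 10 of Sept9 (score 90.8), chr4:33396612-33396762 in intron 12 of 15 of Rngtt (score 72.5) and chr1:189778430-189778580 in intron 1 of 9 of Ptpn14 (score 112.6).
Arhgap21 AP-1: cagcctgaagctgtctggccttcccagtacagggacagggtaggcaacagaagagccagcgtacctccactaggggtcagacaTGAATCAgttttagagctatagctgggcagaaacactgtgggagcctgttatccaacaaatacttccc
Slc25a25 TEAD: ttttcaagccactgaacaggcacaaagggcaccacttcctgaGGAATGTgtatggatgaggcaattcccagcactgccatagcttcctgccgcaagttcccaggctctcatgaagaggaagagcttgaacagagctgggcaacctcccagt
Sept9 SOX: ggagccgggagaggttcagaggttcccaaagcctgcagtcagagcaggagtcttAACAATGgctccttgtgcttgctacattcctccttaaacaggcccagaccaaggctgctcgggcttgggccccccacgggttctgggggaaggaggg
Rngtt CTCF: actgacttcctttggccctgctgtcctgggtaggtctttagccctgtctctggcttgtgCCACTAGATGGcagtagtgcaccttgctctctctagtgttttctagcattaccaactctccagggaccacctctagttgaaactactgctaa
Ptpn14 FOX: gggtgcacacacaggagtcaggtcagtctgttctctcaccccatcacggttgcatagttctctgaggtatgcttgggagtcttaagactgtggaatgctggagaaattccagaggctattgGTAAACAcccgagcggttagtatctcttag

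The Cacng8 peak held the NFY motif at 2 places, 1 on each strand. The Tead3 peak held the SRF motif together with the SP/KLF GC box. The Sept9 peak held the TEAD motif as well as the SOX motif. The Dock9 and Ttc28 intervals are built of short units that recur along the interval. Recurrence is counted over all peaks further on, as a run of 12 letters that occurs more than once, which leaves out shorter units.

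To ask whether introns were affected in the same way as the rest of the genome, the intronic share of each list was compared first. Intronic peaks made up 26.1% of the 12991 gained peaks (25.4 to 26.9%) and 38.2% of the 2745 lost peaks (36.4 to 40.01%), a difference of -12.1 percentage points (-14.1 to -10.1) for gained minus lost. Promoter peaks within 3 kb of a TSS accounted for 30.6% of the gained and 16.7% of the lost list. Set against intergenic peaks at the same distances and with the same repeat limit, 2945 gained and 639 lost, intronic peaks were again a smaller share of the gained than of the lost set (-8.61 points, -11.2 to -5.97). Gained peaks thus formed 76.4% of the intronic peaks (75.1 to 77.6%), 82.2% of the intergenic peaks, 72.2% of the intronic peaks beyond 50 kb and 89.7% of the promoter peaks. The intronic value differed by -5.79 points from the intergenic one (-7.55 to -4.01) and by 4.14 points from that of the deep intronic peaks (0.54 to 7.97).

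For a background, the genome was cut into adjoining tiles of the same length as a peak interval, and the 3462464 tiles that met the same intronic rule made up 523 Mb. The intronic territory held 6.48 gained peaks per Mb and 2.004 lost peaks per Mb, while the 526 Mb of intergenic tiles held 5.601 and 1.22 per Mb. Across chromosomes the gained share ranged from 68.2% on chromosome 13 to 84.3% on chromosome 8 among the autosomes. Chromosome X held 30 gained and 5 lost intronic peaks, which was 1.49 and 0.25 per Mb against at least 4.46 and 1.56 on every autosome. The X chromosome held few of either list, and its gained share therefore rests on 35 peaks.

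Gained intronic peaks lay closer to a TSS than lost ones. The median distance was 11402 bp for gained peaks, 13782 bp for lost peaks and 12911 bp for the tiles, and 44.2% of the gained against 35.1% of the lost peaks lay within 10 kb, a difference of 9.05 points (5.67 to 12.3). The tiles had 39.7% within 10 kb, so the gained peaks lay above and the lost peaks below the intronic territory itself. Gained peaks were 82.1% of the intronic peaks at 3 to 5 kb, 72.7% at 15 to 20 kb, 66.9% at 40 to 45 kb and 74.3% at 45 to 50 kb. Gained peaks also lay within 1 kb of an exon of the host transcript more often (18.8% against 10.8%, with 18.04% of the tiles), a difference of 8.04 points (5.64 to 10.2). Lost peaks sat in longer introns, with a median intron length of 30997.5 bp against 23270.5 bp for gained peaks and 27862 bp for the tiles.

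The intron number separated the lists less clearly. Intron 1 of the host transcript held 40.7% of the gained and 44.2% of the lost peaks, with 39.0% of the tiles, a difference of -3.44 points whose interval (-6.88 to -0.03) barely excluded 0 and included it in 10 of 15 alternatives. The nearest TSS was that of the host transcript for 37.6% of the gained and 36.7% of the lost peaks (difference 0.815 points, -2.56 to 4.12), with 36.2% of the tiles. For most intronic peaks, as for most tiles, the closest TSS was therefore another one, of the same gene or of a neighbour. Host transcripts started more than 50 kb away for 27.5% of the gained and 31.5% of the lost peaks, with 33.3% of the tiles.

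**Figure D1:**
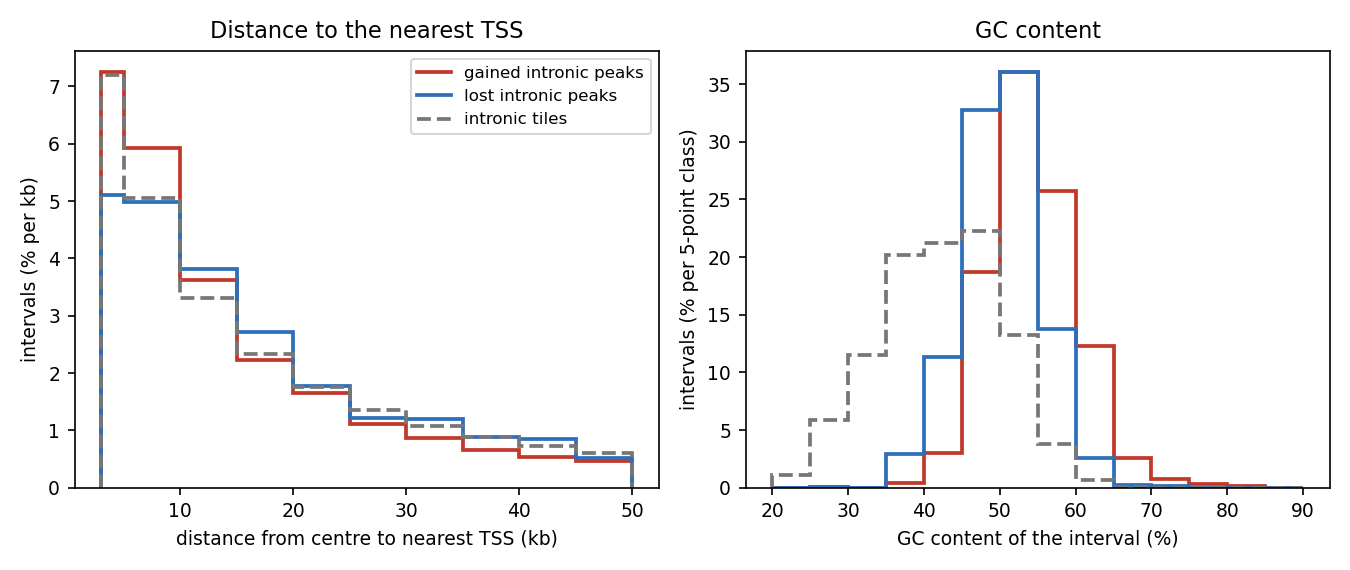
Left, share of gained intronic peaks, lost intronic peaks and intronic tiles per kb of distance between the interval's centre and the nearest TSS; right, the same intervals by GC content in classes of 5 percentage points. At 3 to 5 kb the gained peaks (7.26% per kb) sit with the tiles (7.20%) and above the lost peaks (5.11%), and the GC content of the gained peaks is shifted to the right of that of the lost peaks.

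The base composition differed as well. Gained intronic peaks had a mean GC content of 54.5% (SD 5.96 across peaks) and lost ones 50.2% (SD 5.33), a difference of 4.21 points (3.83 to 4.59), against 42.3% (SD 7.98) in the tiles. Intervals of at least 60% GC were 16.1% of the gained, 3.05% of the lost peaks and 0.76% of the tiles. The gained share of the intronic peaks rose with GC content, from 45.9% at 40 to 45% GC to 64.9% at 45 to 50%, 85.8% at 55 to 60% and 93.9% at 60 to 65%. The gained peaks held 2.45 CpG dinucleotides per interval (SD 2.48) and the lost peaks 1.97 (SD 1.61), against 1.27 (SD 1.38) in the tiles. Fewer gained peaks were free of soft-masked bases, 51.7% against 66.0% of the lost peaks, with 39.9% of the tiles.

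Gained intronic peaks also repeated sequence more often. A run of 12 letters occurred more than once on the same strand within 14.2% of the gained intervals (13.1 to 15.4%) and 3.91% of the lost ones (2.90 to 5.26%), a difference of 10.3 points (8.54 to 11.9). Tiles weighted to the GC content of the gained peaks had 9.70%, and those weighted to that of the lost peaks 6.68%, so that gained peaks lay above and lost peaks below their background. Among intervals with no soft-masked base the shares were 10.7% of the gained peaks, 1.88% of the lost peaks and 2.17% of the tiles. In addition, 10.7% of the gained and 2.29% of the lost intronic peaks shared a run of 20 letters, on either strand, with another listed peak. Reads from such sequence can fit more than 1 place in the genome, and how the study treated them is not given in the sources used here. Without the peaks that repeat 12 letters, 2908 gained and 1007 lost intronic peaks remained, and without those that share 20 letters 3026 and 1024. The counts below include these peaks unless stated, and the 12 motif differences called below were also called without either set. Both features were chosen after the sequences had been seen.

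The peak scores were compared within each list, because their scale is not stated and the lists differ in the step of the score. The exception is an alternative that applies the lost list's median as a limit to both lists, which assumes that the scores share a scale. Of the gained intronic peaks, 46.0% lay in the upper score range of their list (at or above its median of 62.5), against 51.5% of the other gained peaks, a difference of -5.55 points (-7.49 to -3.59). The lost list showed the opposite order, with 55.2% of the intronic peaks at or above its median of 36.8 against 47.4% of the other lost peaks (7.81 points, 3.96 to 11.6). Against intergenic peaks at the same distance, the gained intronic peaks did not differ detectably (1.88 points, -0.57 to 4.34) and the lost intronic peaks scored higher (9.24 points, 4.32 to 14.1). The deep intronic peaks beyond 50 kb scored lower than the intronic peaks in both lists, by 10.9 points among gained (6.06 to 15.4) and 16.7 points among lost peaks (8.74 to 24.3).

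The highest score among the gained intronic peaks was that of the Celf5 peak printed above (483). It was followed by chr7:44433488-44433638 in intron 1 of Lrrc4b, a synaptic adhesion protein gene (467.5), chr9:44130120-44130270 in the antisense gene Gm10687 (466.5) and chr8:70820214-70820364 in the last intron of Il12rb1, a cytokine receptor subunit gene (450). The lost list had a single far leader, chr7:99155334-99155484 in intron 7 of 7 of Dgat2, an enzyme of triglyceride synthesis, with a score of 525.5. The next lost peak, chr5:36323650-36323800 in intron 2 of Sorcs2, a sorting receptor gene, had 228.5, and the Arhgap21 peak printed above had 212. The Dgat2 interval had a GC content of 70.9% and held none of the 24 motifs.

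To describe which factor sites the peaks held, 24 motifs were searched on both strands of each interval. A difference was called when its Newcombe interval at 99.8%, which allows for 24 comparisons, excluded 0. Of the 24 motifs, 7 (29.2%) were more frequent in gained and 5 (20.8%) in lost intronic peaks. The share of tiles that hold each motif is given once for all tiles and once for tiles weighted to the GC content of the peaks, since intronic sequence as a whole is poorer in GC. A match is a string of letters and not a measured binding site.

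The motif with the largest difference was the NFY motif (ACCAATC or ACCAATG or GCCAATC or GCCAATG), in 16.02% of the gained (543 peaks, 14.8 to 17.3%) and 3.44% of the lost peaks (36 peaks, 2.49 to 4.72%). Its share was 5.33% of all tiles, 4.78% at the GC content of gained peaks and 5.40% at that of lost peaks, so the gained peaks were 3.35 times and the lost peaks 0.64 times their background. Among the peaks with an NFY motif, 25.8% of the gained and 2 of the 36 lost peaks held more than 1 match. The difference was 12.6 points (9.72 to 15.03 at 99.8%) over all peaks and 12 points without the peaks that repeat a run of 12 letters.

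The muscle motifs MEF2 and SRF were both more frequent in gained peaks. The MEF2 motif was held by 4.01% of the gained (136 peaks, 3.40 to 4.73%) and 1.81% of the lost peaks (19 peaks, 1.16 to 2.81%). Because this motif is rich in A and T, its share in tiles depended strongly on composition, with 3.25% of all tiles but 0.41% at the GC content of gained and 0.77% at that of lost peaks. Both lists therefore lay above tiles of like composition, by 9.84 times and 2.36 times. The SRF motif (the CArG box) was held by 2.71% of the gained (92 peaks) and 0.19% of the lost peaks (2 peaks), against 0.48% and 0.64% of the weighted tiles. The MEF2 difference of 2.20 points (0.21 to 3.68 at 99.8%) was no longer called when the higher-scoring peaks of each list were used alone (1.63 points), with a score limit common to both lists (1.799 points), in a shorter window at the centre (1.54 points) or with TSSs of protein-coding genes only (2.06 points), whereas the SRF difference of 2.52 points (1.24 to 3.54) was called under every alternative.

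Among GC-rich motifs, the SP/KLF GC box (GGGGCGGGG) was held by 5.31% of the gained peaks (180 peaks) and by none of the 1048 lost peaks (95% Wilson interval up to 0.365%), against 1.499% and 0.63% of the weighted tiles. The KLF motif (CCACACCC) was held by 4.19% and 1.53%, a difference that lost its call in 1 of 17 alternatives, the score limit common to both lists (2.71 points). Outside the GC-rich motifs, the nuclear receptor element (AGGTCA) is a single 6-letter unit of the sites bound by thyroid hormone, retinoid and related receptors. It was held by 16.7% of the gained (565 peaks) and 8.21% of the lost peaks (86 peaks), against 11.1% and 11.2% of the weighted tiles. The T-box motif (AGGTGTGA), bound by TBX5 and its relatives, was held by 1.21% and 0.10% (41 and 1 peaks), and its difference of 1.11 points lost its call in 9 of 17 alternatives.

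In the opposite direction, the AP-1 motif (TGANTCA) was held by 9.73% of the lost (102 peaks) and 5.49% of the gained peaks (186 peaks), and the TEAD motif (ACATTCC) by 7.25% (76 peaks) and 4.13% (140 peaks). The N of the AP-1 string is any base, so its counts mix the FOS and JUN sites TGACTCA and TGAGTCA with other strings. The Arhgap21 peak printed above held such a string, TGAATCA. The forms were not counted apart. The TEAD call was lost in 1 of 17 alternatives, with the higher-scoring peaks of each list alone (-3.18 points). Both lists exceeded tiles of like composition for the TEAD motif, the lost peaks by 3.19 times and the gained peaks by 2.04 times. The SOX motif (CATTGTT) was held by 3.53% of the lost and 0.91% of the gained peaks, and the FOX motif (TGTTTAC) by 2.39% and 0.80%. The SOX call was lost in 1 of 17 alternatives, the score limit common to both lists (-1.51 points). For both the SOX and the FOX motif the gained peaks lay below their tiles, at 0.67 and 0.64 times. The CTCF motif was held by 2.48% of the lost (26 peaks) and 0.32% of the gained peaks (11 peaks), against 0.15% and 0.21% of the weighted tiles, so that the lost peaks held it 16.4 times as often as intronic sequence of the same GC content.

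Several heart motifs did not separate the lists. The GATA motif (AGATAA) was held by 13.2% of the gained and 13.5% of the lost peaks (difference -0.27 points, -4.22 to 3.21 at 99.8%), and both exceeded the weighted tiles, which had 4.27% and 6.10%. The MEIS motif (TGACAG) was held by 23.6% and 19.1%, the most of any motif in both lists, with a difference of 4.54 points (-0.01 to 8.70). The E-box of MyoD type (CAGCTG) was held by 15.5% and 15.4% (0.09 points, -4.06 to 3.802) and the NKX2-5 motif (TNAAGTG) by 7.88% of the gained and 110 of the lost peaks (-2.62 points, -6.15 to 0.38). Beyond the 12 called motifs, the 95% interval excluded 0 for the MEIS, NKX2-5, ETS, TFAP2 and HIF motifs.

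**Figure D2:**
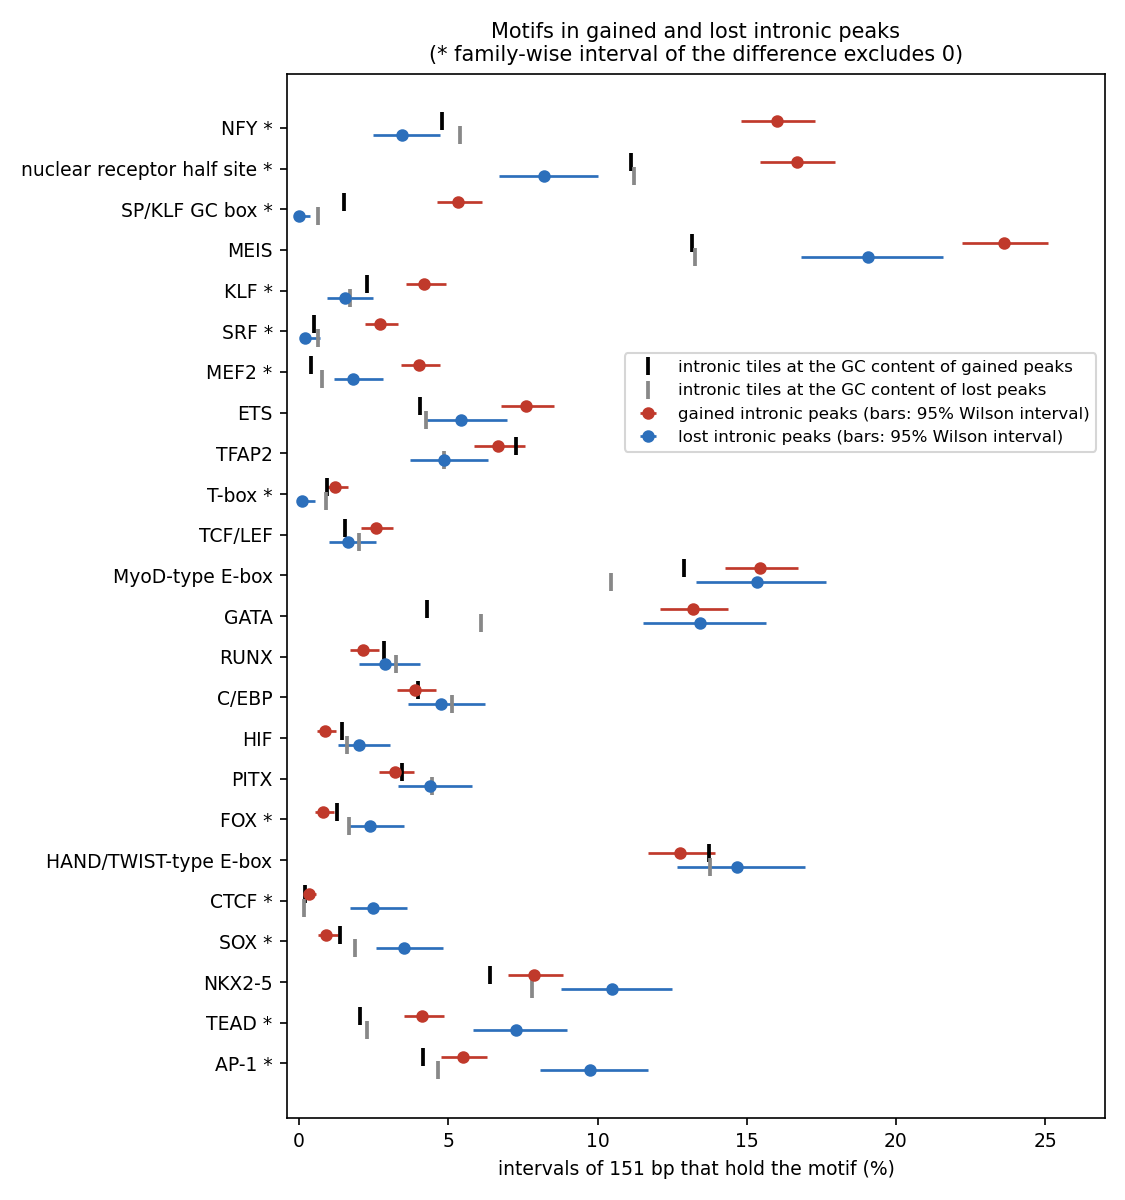
Share of gained and lost intronic peaks that hold each of 24 motifs, with 95% Wilson intervals, and the share of intronic tiles weighted to the GC content of each list (vertical marks). The NFY motif stands at 16.02% in gained and 3.44% in lost peaks, and the AP-1 motif at 5.49% and 9.73%, on opposite sides of the plot.

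The differences were also read within classes of GC content, since the lists differ in composition. At 45 to 55% GC (1856 gained and 721 lost peaks) the NFY motif was held by 18.4% and 3.47%, the SRF motif by 3.77% and 0.14%, the MEF2 motif by 5.33% and 1.39%, and the nuclear receptor element by 18.3% and 8.46%. In the same class the lost peaks held the TEAD motif in 8.32% against 4.80% of the gained peaks, the AP-1 motif in 10.3% against 5.93% and the CTCF motif in 2.497% against 0.32%. All 12 called motifs kept their direction in this class, with 95% intervals that excluded 0. At 95%, with no allowance for the number of motifs, the MEIS motif also differed here, with 27.5% of the gained and 19.3% of the lost peaks (8.20 points, 4.57 to 11.6). So did the GATA motif, with 17.1% and 13.2% (3.904 points, 0.77 to 6.79). The interval also excluded 0 for the ETS motif (2.93 points, 0.66 to 4.94) and the HIF motif (-1.36 points, -2.75 to -0.35). Above 65% GC there were 5 lost peaks, of which 2 held the MEIS motif, and 6 of 129 gained peaks held it (-35.4 points, -72.4 to -6.65). In that class the nuclear receptor element (-13.0 points, -55.6 to 4.33), the TEAD motif and the AP-1 motif (both 2.33 points, -41.1 to 6.61) also turned, with intervals that included 0. At 55 to 65% GC (1289 gained and 171 lost peaks), 11 of the 12 motifs kept their direction, and the 95% interval excluded 0 for NFY, the SP/KLF GC box, the nuclear receptor element and SOX. The TEAD motif turned there, with 3.18% of the gained and 2.34% of the lost peaks (0.84 points, -2.77 to 2.65). Below 45% GC, where lost peaks outnumbered the 116 gained ones, all 12 kept their direction, and the interval excluded 0 for NFY, MEF2 and CTCF and, beyond the 12, for TCF/LEF (5.77 points, 0.60 to 12.2).

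Motif matches lay near the centre of the peaks for some motifs only. The share of matches within 25 bp of the centre would be 34.2 to 36.2% if matches were spread evenly, and was 46.4% for NFY in gained peaks (42.8 to 49.96%), 51.1% for SRF (41.1 to 60.9%) and 51.4% for MEF2 (43.2 to 59.6%). Among other motifs in gained peaks it was 41.4% for GATA (37.1 to 45.8%), 38.4% for MEIS (35.4 to 41.5%), 44.3% for the SP/KLF GC box (38.2 to 50.6%), 49.5% for TCF/LEF (39.4 to 59.5%) and 44.9% for C/EBP (36.8 to 53.2%). In the lost peaks it was 50.3% for GATA (42.4 to 58.3%), 73.1% for CTCF (53.9 to 86.3%), 53.1% for TEAD (42.3 to 63.6%) and 68.4% for MEF2 (46.0 to 84.6%, 19 matches). AP-1 matches in lost peaks (38.7%, 30.2 to 48.0%), TEAD matches in gained peaks (38.1%, 30.6 to 46.1%) and nuclear receptor elements in gained peaks (37.5%, 33.9 to 41.3%) had intervals that included the even spread.

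**Figure D3:**
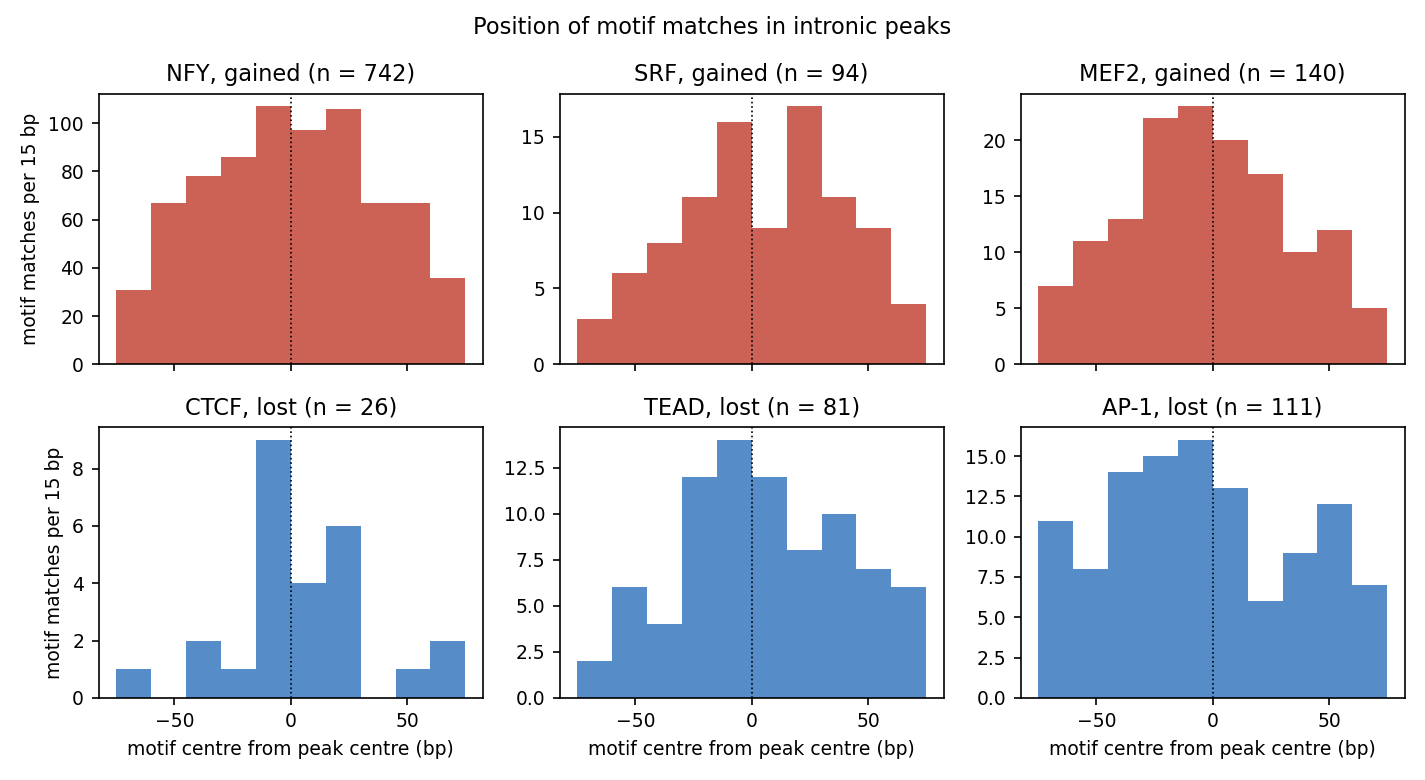
Number of motif matches in 15-bp classes of the distance between the centre of the match and the centre of the peak, for 3 motifs in gained and 3 in lost intronic peaks; the outermost classes are partly closed to matches because a motif must lie within the interval. Matches of NFY, SRF, MEF2, CTCF and TEAD gather around the centre, 46.4% to 73.1% of them within 25 bp, while AP-1 matches are spread more evenly.

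Gained peaks seldom combined these motifs. At least 1 of the 7 motifs more frequent in gained peaks was held by 43.4% of the gained and 14.8% of the lost peaks, and 2 or more of them by 6.11% and 0.38%. Within the gained peaks, MEF2 and SRF motifs occurred together in 3 peaks where independent occurrence would give 3.69. The MEIS motif, which is outside the 7, occurred together with NFY in 89 peaks where independence would give 128. With the nuclear receptor element it went the other way, in 146 peaks against 133.5. At least 1 of the 5 motifs more frequent in lost peaks was held by 22.9% of the lost and 11.2% of the gained peaks. In the lost peaks, TEAD and AP-1 motifs occurred together in 11 peaks against 7.40 under independence. These counts are descriptive, and what lies behind them was not tested.

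The motif content of intronic peaks was then set beside that of intergenic peaks. Between intronic and intergenic peaks at the same distance, 0 of 24 motifs differed in the gained list and 0 of 24 in the lost list at 99.8%. At 95%, the TEAD and NFY motifs were less frequent in intronic gained peaks (-1.13 points, -2.20 to -0.09, and -2.79 points, -4.68 to -0.92) and the nuclear receptor element in intronic lost peaks (-3.22 points, -6.31 to -0.33). The NFY difference was called at 99.8% in 4 alternatives, with no repeat limit among them (-3.74 points, -6.59 to -0.90). The NFY motif was held by 18.8% of the intergenic, 14.3% of the deep intronic and 14.96% of the promoter peaks that were gained. The SP/KLF GC box was held by 14.2% of the gained promoter peaks, against 5.31% of the intronic ones.

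The intronic peaks were then assigned to host genes, the gene whose transcript contained the peak, with protein-coding genes first and then the transcript with the nearest start. Of the 15372 protein-coding genes with intronic territory, 2026 (13.2%) hosted a gained and 803 (5.22%) a lost peak. Both kinds were hosted by 305 genes, which is 15.1% of the hosts of gained and 37.98% of the hosts of lost peaks. Hosts had far more intronic territory than other genes, with medians of 49.5 kb for hosts of gained and 76.0 kb for hosts of lost peaks against 10.1 kb over all genes. In the class of genes with the most territory, 48.0% hosted a gained and 26.7% a lost peak. Counts per gene must be read against this.

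**Figure D4:**
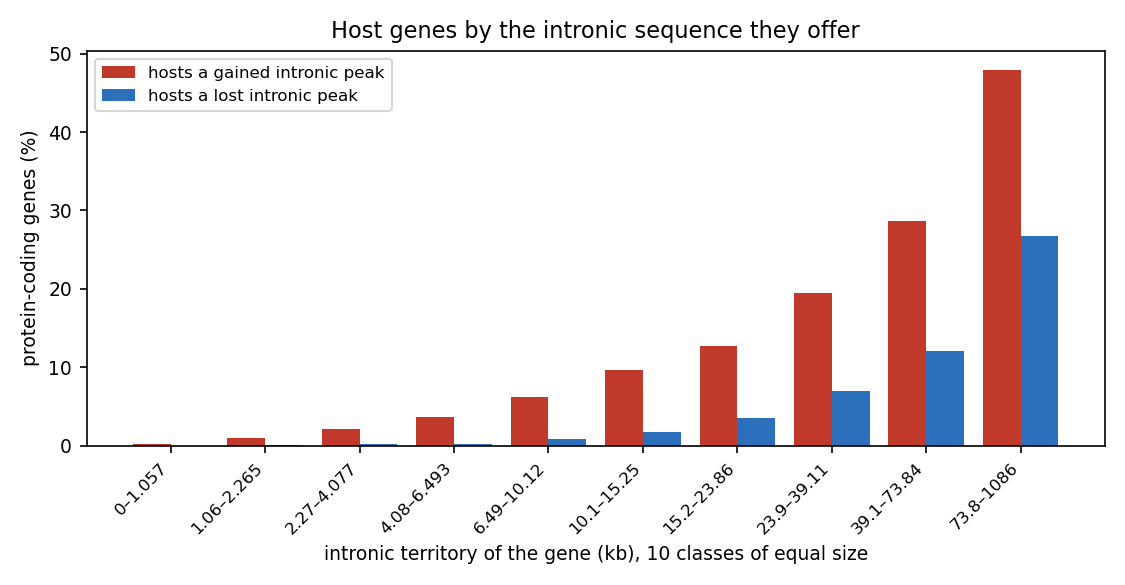
Share of protein-coding genes that host a gained or a lost intronic peak, in 10 classes of equal gene number by the intronic territory of the gene in kb. The share rises with territory in both lists, to 48.0% for gained and 26.7% for lost peaks in the class with the most territory.

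Some genes hosted several peaks. Of the hosts of gained peaks 28.6% held 2 or more, and of the hosts of lost peaks 15.7%. These shares are not compared, since the gained list is longer (3011 against 969 peaks in protein-coding hosts). The most gained peaks, 30, fell in Gm20388, a long gene model (chr8:119910841-124345722) that overlaps other genes, Gse1 among them. Nav2, a gene of axon guidance and cell migration, held 13 gained peaks with scores from 35 to 282 and 1 lost peak of score 54. Grip1, which codes for a scaffold of glutamate receptors, held 12 gained peaks and 1 lost peak. Cacna1c, Kalrn (a guanine exchange factor of neurons), Mdga1, Cdh23 and Ntm (cell adhesion genes) held 7 gained peaks each. Fgfr2, a fibroblast growth factor receptor gene, was also assigned 7, but all of them fell in 1 intron of 2908817 bp of a single long gene model, at least 713039 bp from its start. The most lost peaks fell in Gmds, an enzyme of fucose synthesis, with 6 lost peaks of score 20.1 to 66.5 and 1 gained peak, and Mast4, a kinase gene, with 5 lost and 3 gained peaks. Disp1, Ppfibp1, Sox6, Pard3 and Fmn1 held 4 lost peaks each, of which Ppfibp1 and Fmn1 held no gained peak.

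Gained and lost peaks could lie side by side in 1 gene. Cacna1c, the pore subunit of the cardiac L-type calcium channel, had a lost peak at chr6:118819793-118819943 (score 96.5, holding GATA, NKX2-5 and FOX motifs) and a gained peak at chr6:118820425-118820575 (score 89), so that their centres were less than 1 kb apart in intron 3. Such pairs were rare. Only 6 of the 1048 lost intronic peaks had a gained peak of any kind within 1 kb, and 5 of the 3390 gained intronic peaks had a lost peak within 1 kb. Within 10 kb, 10.2% of the lost intronic peaks had a gained peak and 3.01% of the gained had a lost peak. Peaks of the same list lay within 10 kb of 22.0% of the gained and 6.39% of the lost intronic peaks. The lists are not compared on these shares, since the whole gained list is longer (12991 against 2745 peaks) and no background was computed.

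Host genes often had a listed peak at their own promoter. A gained promoter peak, within 3 kb of a TSS of the host gene, was present for 29.0% of the gained and 19.9% of the lost intronic peaks with a protein-coding host (9.11 points, 6.03 to 12.02). A lost promoter peak was present for 3.35% and 6.30% (-2.94 points, -4.75 to -1.41), and this difference was not detectable with a promoter window of 1 kb (-0.48 points, -1.69 to 0.46). Counted per gene, 25.8% of the 1721 hosts of gained peaks alone and 16.3% of the 498 hosts of lost peaks alone had a gained promoter peak, against 14.1% of all genes with intronic territory and 12.1% of the genes that hosted neither. A lost promoter peak was present for 2.32% and 4.62% of the same hosts, against 1.56% of all genes and 1.22% of those that hosted neither. For gained promoter peaks, the share of hosts of gained peaks alone was the higher one in each of the 5 territory classes with 20 or more genes of both kinds. It was 31.6% against 18.7% in the class with the most territory and 21.2% against 16.5% in the class below it. In the class of the 5 with the least territory, the shares were nearly equal, at 25.9% against 25% (6 of 24 genes).

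Genes of 14 lists were followed next, and each count is set beside the share of all genes in the same territory classes. Of the 30 genes for the cardiac sarcomere and excitation-contraction coupling with intronic territory, 8 (26.7%) hosted a gained peak and 4 (13.3%) a lost peak, against 22.8% and 10.6% in the same classes. Tnni1 (slow skeletal troponin I, the fetal cardiac form) held 1 gained peak of score 141.5, Ttn (titin) 1 of 72.5, and Smyd1, a histone methyltransferase of heart and skeletal muscle, 2 of 76.5 and 29.5, both with a GATA motif. Ryr2, the calcium release channel of the heart, held 2 lost peaks of score 60.2 and 35.3 and no gained peak.

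Of the 25 cardiac transcription factor genes, 7 (28.0%) hosted a gained and 5 (20%) a lost peak, against 21.1% and 10.0%. Tbx5 held 2 gained peaks of score 120.5 and 83.5 in introns 8 and 7 of 8, the second with a MEF2 motif, and Meis1 held 2 of 149.5 and 85. Prdm16 held 6 gained peaks with scores from 61.5 to 101.5. Mef2c held 1 gained peak (113.5) and 2 lost peaks (42.5 and 22), Tead1 and Foxp1 were also hosts of both kinds, and Myocd, a coactivator of SRF, held 1 lost peak (43.2) with a MEF2 motif. The lost peak of Tead1 (57.5) held a TEAD motif.

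Of the 23 genes for fast skeletal muscle and myogenesis, 5 hosted a gained peak (21.7%, against 14.0% in the same classes) and 0 a lost peak (against 5.28%, which over 23 genes is little more than 1 gene). The 5 were Atp2a1 (the calcium pump of fast muscle, score 107.5), Ryr1 (the calcium release channel of skeletal muscle, 83 and 38.5), Cacna1s (its voltage sensor, 68 and 66), Capn3 (a muscle protease, 42) and Pax3 (a factor of muscle progenitors, 112.5). Smooth muscle genes showed 4 hosts of lost peaks among 15 (26.7%, against 10.54%), with Mylk, Cald1 and Ldb3 among them (Ldb3, a Z-disc gene of striated muscle, is also counted in the sarcomere list), and 2 hosts of gained peaks (13.3%, against 21.2%). Of 15 epicardial and mesenchymal genes, 3 hosted a lost peak (20%, against 2.80%), namely Wt1 (37.5), Aldh1a2 (16.1) and Dcn (45.8), and 2 a gained peak (13.3%, against 9.61%). These counts are small, and most of these hosts held 1 or 2 peaks.

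Of 30 neuronal and synaptic genes, 15 hosted a gained peak (50%, against 34.7% in the same classes, which are long genes) and 5 a lost peak (16.7%, against 18.1%). Nav2, Cdh23 and Sdk2 held 26 of its 49 gained peaks, and the list was drawn up with earlier results of these data known. Of 27 Wnt pathway genes, 10 hosted a gained peak (37.0%, against 21.9%) and 6 a lost peak (22.2%, against 9.53%), with Axin2, a feedback inhibitor of the pathway, holding 2 gained peaks (95 and 66.5) that both carried a GATA motif. The TGF-beta and BMP list had 8 hosts of gained and 3 of lost peaks among 32 genes, close to the share of their classes (23.8% and 10.6%). Of 23 endothelial genes, 5 hosted a gained peak (21.7%, against 21.1% in the same classes) and 2 a lost peak (8.70%, against 9.49%). Of 26 angiogenesis genes, 5 hosted a gained peak (19.2%, against 22.9%) and 3 a lost peak (11.5%, against 10.7%). Flt1 (gained) and Kdr (lost), receptors of vascular growth factors, are hosts counted in both the endothelial and the angiogenesis list. Of 17 erythroid genes, 2 hosted a gained peak (11.8%, against 13.7%) and 3 a lost peak (17.6%, against 5.54%). Glycolysis genes had 1 host of a gained peak, Slc2a1, among 17 (5.88%, against 8.85%) and 0 of a lost peak (against 2.45%). Of 20 hypoxia genes, 1 hosted a gained peak (5%, against 14.6%) and 2 a lost peak (10%, against 5.72%). Of 13 NuRD subunit genes, Chd5 and Gatad2a hosted gained peaks of score 69 and 143.5 (15.4%, against 10.8%), and Mta3 and Mbd2 lost peaks of score 55.7 and 20.3 (15.4%, against 3.39%). Without the peaks that repeat a run of 12 letters, 1 NuRD gene hosted a gained peak.

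**Figure D5:**
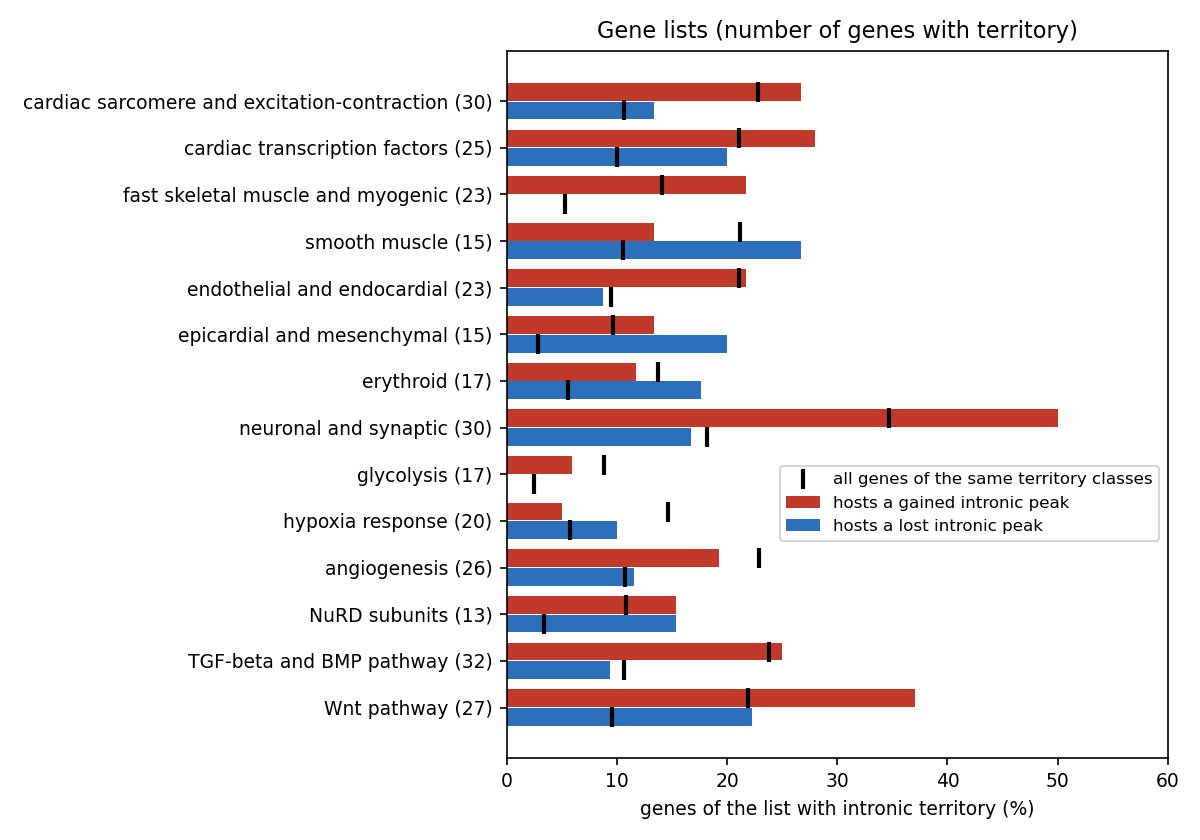
Share of the genes of each list that host a gained or a lost intronic peak, with the number of genes with intronic territory in brackets and, as vertical marks, the share of all protein-coding genes in the same territory classes. The neuronal list has a gained share of 50% (against 34.7%) and the smooth muscle list a lost share of 26.7% (against 10.54%), with Ldb3 counted in both the smooth muscle and the sarcomere list.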

How the data were processed

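ATAC-seq libraries of 4 WT and 4 Chd4-CMko samples were analysed from the files the authors deposited, 1 list of peaks per genotype. The authors aligned reads to mm10 with BWA-MEM and called peaks with HOMER 4.10.3, and they annotated them with ChIPseeker 1.20.0. The study set a cutoff of fold change for differing peaks, and its methods name no test across replicates for them. Each file was deposited with a peak score of unstated scale (column 5) and no counts. The methods of the study state a sequencing depth per sample, but the files do not show the depth of each library or the replicate error. How the samples were combined, and how duplicate and multi-mapping reads and the Tn5 shift were handled, is not given in the sources used here. The list labelled Chd4-CMko was read as gained and the list labelled WT as lost.

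Each interval was annotated against GENCODE M21 (141730 transcripts) and the mm10 sequence with Python 3.11.15, numpy 2.4.6 and pandas 2.3.3. Tiles of 151 bp that met the same rule served as background, weighted in GC classes of 2.5 percentage points where stated. Shares were given with 95% Wilson and differences with 95% Newcombe intervals, and motif differences were called at 99.8%, which allows for 24 motifs. No p-value was computed. The motif search was tested on 12000 simulated sequences, where 0 disagreed with an independent search, and the intervals covered the simulated difference in 94.8 to 96% of 8000 draws. The intronic peaks, motifs and 14 gene lists were chosen with earlier results of these data known.

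Named host genes were the 12 protein-coding genes with the most peaks of each list, the hosts of the 8 highest scores of each list, up to 15 hosts of both kinds and the hosts in the gene lists, and the text describes part of them, since some are not reported here. Each value was recomputed with other limits, windows and score cut-offs, 2 of them chosen after seeing the data.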

Additional observations from a re-analysis of the deposited data

How the results depend on the processing

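No paired analysis was possible because the files hold 1 list of peaks per genotype and no value for a single sample, and for the same reason no replicate could be left out. Among the values recomputed under the alternatives, which cover the 12 called motifs and not the GC classes, none changed sign. Of 315 values that answer a comparison, 281 stayed on the same side of their limit or within 1.5 times the count, and of 624 values for single motifs and gene lists 582 did. The intron 1 difference no longer excluded 0 with TSSs of protein-coding genes only (-3.61 points), a lower limit of 5 kb (-3.50), an upper limit of 100 kb (-2.18), no repeat limit (-2.63), the peaks at or above the median score of their list (-2.63), a score limit of 36.8 common to both lists (-4.10), autosomes only (-3.29) and 1 peak per host gene and list (-3.47), nor, in the alternatives added after seeing the data, without peaks that share 20 letters with another peak (-2.60) or repeat 12 letters (-3.13). The gained share was 74.1% with at most 20% repeat, 72.9% above the median scores, 82.6% with the common score, 72.6% with 1 peak per host gene, 74.7% without shared and 74.3% without repeated letters. Above the median scores 1558 gained and 579 lost peaks remained, with 1069 and 484 host genes and 111 hosts of both. The common score left 579 lost peaks, 484 hosts of lost peaks, 187 hosts of both and 4 motifs more frequent in gained peaks. The number of motifs that differed between intronic and intergenic gained peaks was 1 (NFY) at up to 30 kb, up to 100 kb, with no repeat limit and with overlap of the centre base only. A lost promoter peak at the host differed by -0.48 points with a window of 1 kb. Within 10 kb, 107 lost peaks had a gained and 102 gained peaks a lost peak nearby. The gained peaks with a lost peak within 1 kb were 3 at up to 30 kb and 3 with 1 peak per host gene. Fewer peaks enter several of these settings, and for the others the cause was not tested. Scores of unknown scale, and files that do not show the depth of each library, limit what the lists can show.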

Other observations

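A string that was on none of the motif lists differed in frequency between the 2 sets of intronic peaks. CCCTCCCC, searched on both strands and chosen after values were seen, was in 11.6% of the gained intronic peaks (10.6 to 12.7%) and 1.24% of the lost ones (0.73 to 2.11%). Its shares in intergenic peaks at the same distance were 11.2% and 2.03%. A run of 12 letters occurred more than once in 14.2% of the gained and 4.23% of the lost intergenic peaks, beside 14.2% and 3.91% of the intronic ones.

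The score of a peak was compared between peaks with and without a motif in 26 combinations of motif and list, and the 95% interval excluded 0 in 4 of them. Gained intronic peaks with the SP/KLF GC box lay at or above the median score of their list in 58.9% of 180 peaks, 13.7 points above those without it (6.15 to 20.8). The difference was 9.43 points for gained peaks with the TEAD motif (0.99 to 17.6), -5.45 points for those with the nuclear receptor element (-9.85 to -0.95) and -18.05 points for the 37 lost peaks with the SOX motif (-32.15 to -1.69). For gained peaks with the NFY motif it was -2.32 points (-6.82 to 2.27). The share of peaks within 10 kb of a TSS was compared in the same 26 combinations, and the interval excluded 0 in 4. The share was higher with the SRF motif in gained peaks (11.6 points, 1.28 to 21.5) and the nuclear receptor element in lost peaks (17.5 points, 6.66 to 28.2). It was lower with the KLF motif in gained peaks (-8.60 points, -16.2 to -0.26) and the MyoD-type E-box in lost peaks (-10.7 points, -17.6 to -2.75). These intervals were not adjusted for the number of combinations.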
